A study of Homo sapiens with 11 samples.

Results

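The G2/M and mitosis genes described here are 40 human genes of the machinery that takes a cell from G2 through division, with genes of kinesin (KIF) symbol left out. They were taken by symbol through Ensembl identifiers, and not by a threshold on their values. All 40 symbols matched a row among the 58735 gene identifiers of the deposited count tables, and all 40 passed the filter on low counts, which asks for enough reads in as many libraries as the smaller group holds, in every comparison. The study lowered MYEOV, a gene named for its overexpression in myeloma, by small interfering RNA (siRNA) in 2 human lines of pancreatic cancer, which are AsPC-1 and PANC-1, and counted poly(A) RNA per gene. The groups were AsPC-1 cells 48 hours after transfection of MYEOV siRNA (n = 3 libraries), AsPC-1 control cells (n = 2), PANC-1 cells 48 hours after transfection of MYEOV siRNA (n = 3) and PANC-1 control cells (n = 3). AsPC-1 cells were grown in RPMI and PANC-1 cells in DMEM, both with serum, so the medium and the line cannot be told apart.

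The control samples are titled wild type and described as untreated, whereas the protocol also lists a negative-control siRNA, so a part of transfection itself in the siRNA comparisons was not tested. A pair of MYEOV siRNAs is listed, and the library numbers are not tied to them. The labels do not tie libraries of a group to separate cultures. The p-values therefore reflect only how far these libraries spread, and that spread may be technical. In bulk libraries such as these, fewer cells in G2 or mitosis and less RNA per cell cannot be told apart.

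Entry into mitosis is driven by CDK1 bound to B-type and A-type cyclins, which CDC25 phosphatases switch on. Aurora and Polo kinases then build the spindle, the spindle assembly checkpoint holds anaphase back until chromosomes are attached, and the anaphase-promoting complex with CDC20 destroys securin and cyclin B. RNAs of many of these genes are made mostly in late S phase and G2. Many of their promoters share a cell cycle homology region, beside CCAAT boxes bound by NF-Y. The homology region is an element through which the DREAM repressor and the MYB-MuvB and FOXM1 activators act. Because many of these genes follow the cell cycle, such genes are used as a readout of dividing cells in tumour lines.

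Promoter sequence was available in RefSeq (GRCh38.p14, 250 bases before to 50 bases after the annotated start) for 32 of the 40 genes. The letters of the cell cycle homology region were searched as TTTGAA or TTTAAA and the box of NF-Y as CCAAT, on both strands, so that the box also matched as ATTGG. The first occurred in 26 of the 32 promoters (81.2%), against 24.3% of 27305 promoters, and the second in 24 (75%), against 35.7%. Both occurred in 20 of the 32 promoters (62.5%), against 9.49% of all promoters. A match is a description of letters and not a measured binding site. The promoters of 5 genes that the results turn on are shown, in capitals where the searched letters occur (overlapping matches run together). CDCA8 fell the most in both lines, ANLN rose in both lines, and MKI67 rose in AsPC-1. CDC20 and CCNB1 fell in both lines, but their calls in PANC-1 were lost when some single libraries were left out.
CDCA8, chr1:37692266-37692565, plus strand: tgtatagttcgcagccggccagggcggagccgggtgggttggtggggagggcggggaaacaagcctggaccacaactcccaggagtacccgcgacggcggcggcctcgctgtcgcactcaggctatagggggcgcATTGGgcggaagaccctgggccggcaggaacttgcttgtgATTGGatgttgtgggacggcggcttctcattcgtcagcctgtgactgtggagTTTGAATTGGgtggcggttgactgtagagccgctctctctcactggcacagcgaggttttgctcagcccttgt
CDC20, chr1:43358731-43359030, plus strand: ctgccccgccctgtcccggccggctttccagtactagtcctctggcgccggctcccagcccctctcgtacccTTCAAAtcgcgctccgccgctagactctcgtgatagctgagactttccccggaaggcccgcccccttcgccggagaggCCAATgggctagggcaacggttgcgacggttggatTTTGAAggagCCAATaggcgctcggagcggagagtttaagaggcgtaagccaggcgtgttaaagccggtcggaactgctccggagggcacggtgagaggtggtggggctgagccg
CCNB1, chr5:69166900-69167199, plus strand: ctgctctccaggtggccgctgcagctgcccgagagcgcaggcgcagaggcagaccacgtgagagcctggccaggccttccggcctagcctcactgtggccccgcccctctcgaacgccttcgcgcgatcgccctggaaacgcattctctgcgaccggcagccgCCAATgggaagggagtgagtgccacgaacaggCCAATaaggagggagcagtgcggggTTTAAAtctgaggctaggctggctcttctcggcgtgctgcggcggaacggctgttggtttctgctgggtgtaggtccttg
ANLN, chr7:36389612-36389911, plus strand: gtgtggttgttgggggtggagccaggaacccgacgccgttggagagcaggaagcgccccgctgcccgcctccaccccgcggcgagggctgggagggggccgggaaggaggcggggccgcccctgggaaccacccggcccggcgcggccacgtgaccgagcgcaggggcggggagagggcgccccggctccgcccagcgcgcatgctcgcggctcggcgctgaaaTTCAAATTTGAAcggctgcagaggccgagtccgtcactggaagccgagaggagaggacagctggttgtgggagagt
MKI67, chr10:128126374-128126673, minus strand: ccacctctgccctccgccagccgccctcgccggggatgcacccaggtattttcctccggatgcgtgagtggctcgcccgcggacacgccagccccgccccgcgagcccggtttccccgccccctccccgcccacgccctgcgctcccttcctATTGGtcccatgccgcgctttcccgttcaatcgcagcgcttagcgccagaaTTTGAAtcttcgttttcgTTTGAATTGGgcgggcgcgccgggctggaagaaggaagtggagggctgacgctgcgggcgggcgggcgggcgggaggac

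The 5 promoters differ in these letters while each holds the first motif. CDCA8 has 1 match of the first motif and 3 CCAAT boxes, CDC20 has 2 and 2, CCNB1 has 1 and 2, MKI67 has 2 and 2, and ANLN has 2 and 0. Among the 32 genes with a promoter sequence, 15 of the 26 with TTTGAA or TTTAAA were called lower in AsPC-1 and 7 of 26 in PANC-1, against 2 of 6 and 0 of 6 without it. With CCAAT, 14 of 24 were called lower in AsPC-1 and 7 of 24 in PANC-1, against 3 of 8 and 0 of 8 without it. Over all tested genes, 16.3% were called lower in AsPC-1 and 4.92% in PANC-1. No difference between genes with and without a motif was tested, and the groups without one are small.

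A second feature lies in the 3′ UTR, the untranslated part of the messenger after the stop codon. The 7-base word CTCATGT was picked out by an earlier look at these same data, so its link with lower RNA is no independent evidence. At least 1 copy occurred in an annotated 3′ UTR (GENCODE 29) of 8 of the 40 genes, against 14.1% (AsPC-1) and 14.2% (PANC-1) of all tested genes that have such an annotation. The 9 copies are shown with 11 bases on either side and the word in capitals, as the messenger strand written with T.
CDCA8: cacatggctttCTCATGTagggctctctg
MAD2L1: ggtataacagtCTCATGTattggttggct
CENPA: tttgtgagttaCTCATGTgactatttgag
BIRC5, first copy: tgtgtctggacCTCATGTtgttgaggctg
BIRC5, second copy: gccaataaagtCTCATGTggttttatcta
CDC25C: tttcccaactcCTCATGTcttctcacaag
NUSAP1: gttcaaatatcCTCATGTaattgccatct
TOP2A: atgagaaattgCTCATGTtcttcatcttc
NCAPG: ggagccatgttCTCATGTggtttaccata

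Library totals ran from 12113093 to 15066456 counts on genes, with 22050 to 24025 genes detected, and the 40 genes held 0.608% to 0.864% of the counts. MYEOV itself had 42.9, 50.7 and 48.1 CPM (read counts scaled to a fixed library size with TMM factors, on 1 scale for all libraries) in AsPC-1 siRNA libraries, against 131 and 129.7 in AsPC-1 controls, and 37.7, 35.8 and 39.8 in PANC-1 siRNA libraries, against 75.1, 68.6 and 64.4 in PANC-1 controls. The target was thus lower in every siRNA library than in every control of its line. Every pair of replicates differed by more than sampling noise, and the pairs with PANC-1 control replicate 2 differed the most. The epithelial keratins KRT8, KRT18 and KRT19 were abundant in both lines, EPCAM and CDH1 were high in AsPC-1 and at most 7.93 and 12.2 CPM in PANC-1, and KRT7 stayed at or below 3.56 CPM in all libraries. The sum of the 6 epithelial markers was 2092 to 2112 CPM without TMM factors in PANC-1 siRNA libraries, against 2456 to 2739 in PANC-1 controls, and 16536 to 17006 in AsPC-1 siRNA libraries, against 16654 to 16826 in AsPC-1 controls. The sum of 10 leukocyte markers was 27.7 to 29.4 in AsPC-1 siRNA libraries, against 29.6 to 30.2 in AsPC-1 controls, nearly all of it LYZ, and 1.06 to 1.86 in PANC-1 siRNA libraries, against 1.24 to 1.90 in PANC-1 controls. CD14 had 7 to 36 counts per library, PTPRC at most 2, and MS4A1 and CD3E had 0 in all libraries. The sum of 8 endothelial markers was 19.5 to 20.5 in AsPC-1 siRNA libraries, against 17.4 to 17.8 in AsPC-1 controls, and 52.4 to 55.5 in PANC-1 siRNA libraries, against 49.1 to 58.3 in PANC-1 controls. ENG had 204 to 821 counts per library, CDH5 at most 1 and EMCN 0 in all libraries. The sum of 10 fibroblast markers was 96.8 to 99.9 CPM without TMM factors in AsPC-1 siRNA libraries, against 278 to 284 in AsPC-1 controls, where LUM fell to 34.4% of control. In PANC-1 the sum was 62.0 to 65.1 in siRNA libraries, against 45.7 to 54.9 in controls. The highest count in any library was 672 for COL1A1, 165 for THY1, 85 for COL3A1, 28 for ACTA2 and 19 for PDGFRB. FAP, COL1A2, PDGFRA and DCN had at most 6 counts in any library. The part of these shifts in the results was not tested.

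Levels of different genes were compared only per kilobase of exon, in control libraries. TPX2, which activates Aurora A at the spindle, had the highest level in both lines, at 122 ± 4.26 CPM per kilobase in AsPC-1 (SD, n = 2) and 208 ± 4.76 in PANC-1 (n = 3). UBE2C, the ubiquitin-conjugating enzyme of the anaphase-promoting complex, and CCNB1 followed in AsPC-1, at 96.7 ± 0.0460 and 92.9 ± 1.52 CPM per kilobase. In PANC-1 the next genes were CDC20 at 121 ± 8.51 and CCNB1 at 117 ± 4.11 CPM per kilobase, whose libraries overlapped. At the low end stood PRC1, the bundler of the central spindle, with 0.464 ± 0.0435 CPM per kilobase in AsPC-1 and 0.955 ± 0.0685 in PANC-1, then NUSAP1, a spindle protein, with 5.14 ± 0.360 and 6.06 ± 0.356. PRC1 shares 58.4% of its annotated exon bases with AC068831.7, on the same strand, and the antisense PRC1-AS1, and NUSAP1 shares 62.2% with AC087721.2 on the same strand. The part of this sharing in both low levels was not tested. The median over the 40 genes was 28.4 CPM per kilobase in AsPC-1, and 32.7 in PANC-1, and 30 genes reached 20 CPM per kilobase in each line. Of the 39 pairs of neighbours in the order of levels, 13 overlapped between libraries in AsPC-1 and 26 in PANC-1, so much of the middle of the order is not resolved.

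Within a group the 40 genes varied little between libraries. Their median coefficient of variation was 3.37% in AsPC-1 siRNA libraries, against 2.14% in AsPC-1 controls, and 4.06% in PANC-1 siRNA libraries, against 5.88% in PANC-1 controls. Over all genes of at least 10 CPM it was 4.11% in AsPC-1 siRNA libraries, against 3.22% in AsPC-1 controls, and 4.56% in PANC-1 siRNA libraries, against 5.97% in PANC-1 controls. Of the 40 genes, 16 share exon bases with another annotated gene, FOXM1 for 15.9% of its bases with the opposite-strand gene ITFG2.

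**Figure D1:**
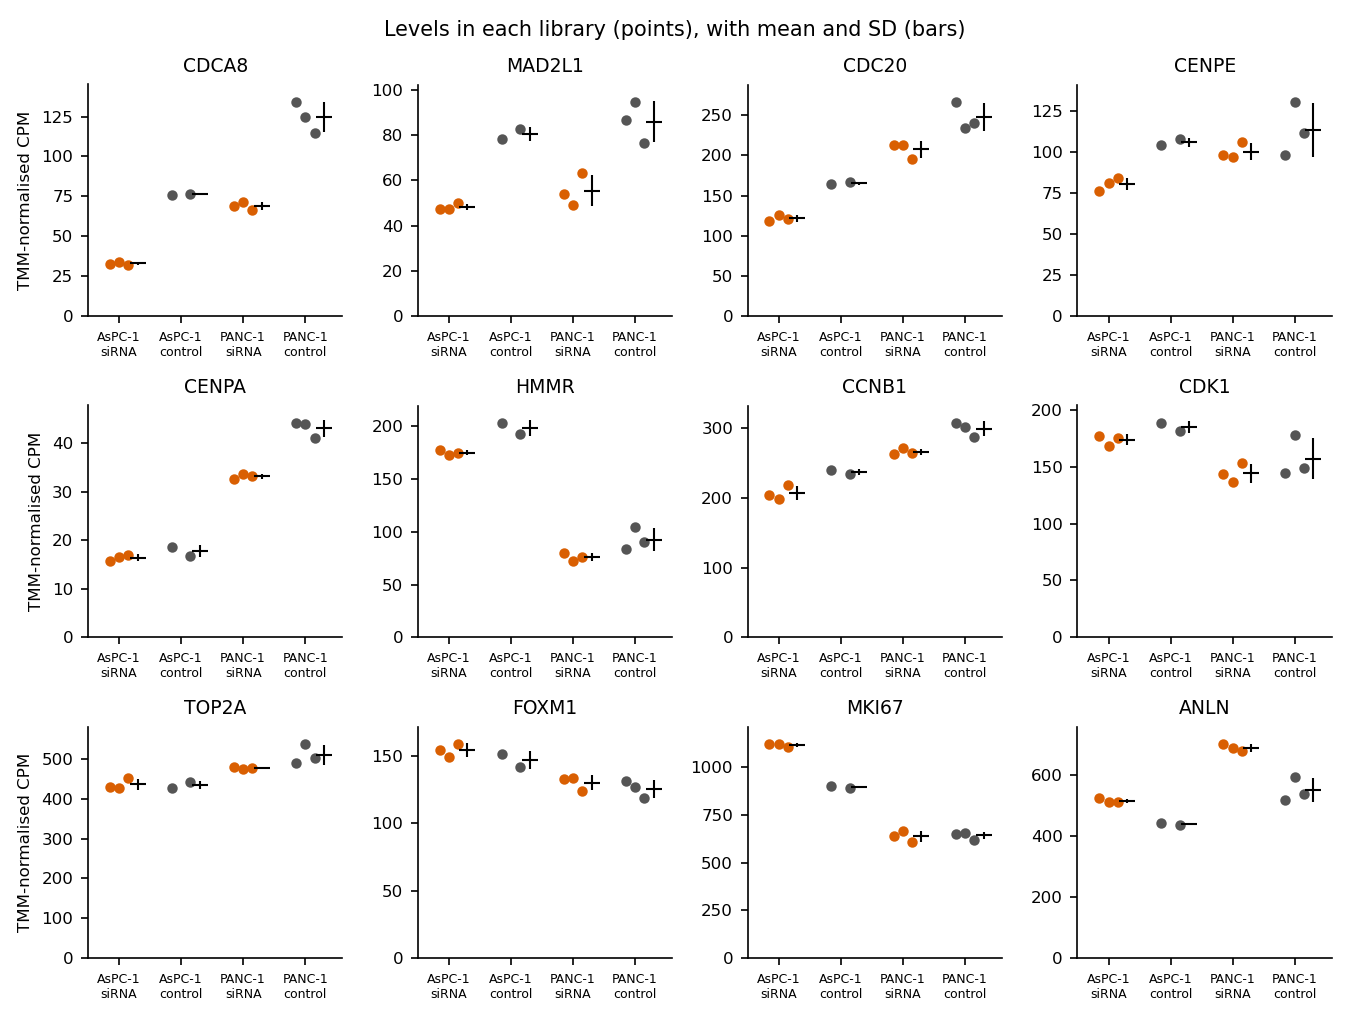
TMM-normalised CPM (vertical axis, from 0) of 12 genes in each of the 11 libraries. Points are libraries, siRNA in orange and control in grey, and the bars beside them give the mean and SD of the group. CDCA8 and MAD2L1 lie far below their controls in both lines, ANLN lies above them in both lines, and MKI67 lies above its controls in AsPC-1 and among them in PANC-1.

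The first comparison asked what MYEOV siRNA did to these genes in AsPC-1. Of the 40 genes, 19 fell and 3 rose, and 18 were not called. The deepest falls were those of CDCA8, MAD2L1, CDC20 and CENPE, and the other called genes that fell lay at 79.9% to 92.7% of control. The rises were of MKI67, ANLN and CDC25B. Calls are by edgeR's quasi-likelihood test with Benjamini-Hochberg adjustment over all tested genes and a threshold of 0.05. In this line 32.9% of all tested genes were called, 16.6% higher and 16.3% lower, beside which 47.5% of the 40 genes were lower. The median log2 fold change was -0.138 over the 40 genes and -0.00244 over all tested genes, and 31 of the 40 values were negative. All siRNA libraries lay below all controls for 26 of the 40 genes and above them for 5, against 27.4% and 27.1% of all tested genes. In 1 fit over all 4 groups, 10 of the 40 genes were called lower in place of 19. Over all tested genes, that fit called 3503 in either direction in place of 4709.

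Among the cyclins and their kinase, 4 of 5 genes fell in AsPC-1. CDK1, the kinase of mitotic entry, had 177, 168 and 176 CPM in siRNA libraries, against 189 and 181 in controls (log2 fold change -0.11 with SE 0.040 and edgeR adjusted p = 0.0378), and this call was lost in 6 of 12 alternative analyses. CCNB1, which encodes cyclin B1, had 204, 199 and 219 CPM in siRNA libraries, against 240.3 and 235 in controls (log2 fold change -0.21 with SE 0.041 and edgeR adjusted p = 2.25e-04). The groups did not overlap for either gene, and the shortfall was larger for CCNB1. CCNB2, a second B-type cyclin, fell to 82.0% of control and CCNF, the F-box cyclin, to 88.9%, the call of CCNF being lost in 4 of 12 alternatives. CCNA2, which encodes cyclin A2 and acts from S phase on, was not called, with 128, 131 and 135 CPM in siRNA libraries, against 123 and 121 in controls. Of the phosphatases that activate CDK1, CDC25B rose, with 439, 420.4 and 424 CPM in siRNA libraries, against 367 and 364 in controls (log2 fold change 0.21 with SE 0.034 and edgeR adjusted p = 2.06e-05). CDC25C was not called, at 19.2, 23.8 and 23.9 CPM in siRNA libraries, against 27.3 and 23.4 in controls, and its groups overlapped.

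Of the mitotic kinases, 3 of 4 fell in AsPC-1. PLK1, which acts at centrosomes, kinetochores and the midbody, fell to 83.9% of control (log2 fold change -0.25, SE 0.039), AURKA, the centrosomal Aurora kinase, to 86.7%, and NEK2, which splits the centrosomes, to 90.3%. The call of NEK2 was lost in 7 of 12 alternative analyses. AURKB, the Aurora kinase of the chromosomal passenger complex, was not called, with 51.5, 55.4 and 52.2 CPM in siRNA libraries, against 52.6 and 51.6 in controls. Its groups overlapped, with a log2 fold change of 0.011.

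The chromosomal passenger complex joins AURKB to INCENP, survivin and borealin. CDCA8, which encodes borealin, had 32.6, 34.2 and 32.4 CPM in AsPC-1 siRNA libraries, against 76.1 and 76.8 in controls. That left 42.9% of the control level (log2 fold change -1.22 with SE 0.059 and edgeR adjusted p = 2.22e-14), and no siRNA library came near a control. BIRC5, which encodes survivin, had 83.7, 76.4 and 81.3 CPM in siRNA libraries, against 86.7 and 87.7 in controls, and was not called (edgeR adjusted p = 0.0512), although no libraries overlapped. INCENP, the scaffold of the complex, had 117, 121 and 127 CPM in siRNA libraries, against 126 and 134 in controls, with overlapping groups. CDCA8 thus stood apart from its partners in size.

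The spindle assembly checkpoint held the second large fall. MAD2L1, which encodes the MAD2 inhibitor of CDC20, had 47.3, 47.5 and 50.0 CPM in AsPC-1 siRNA libraries, against 78.2 and 82.6 in controls (log2 fold change -0.75 with SE 0.056 and edgeR adjusted p = 1.01e-10). Its level after siRNA was 59.5% of control, with no overlap between libraries. BUB1, the checkpoint kinase, fell to 82.3% of control (log2 fold change -0.28, SE 0.046). BUB1B, BUB3 and TTK were not called, at 93.9%, 101% and 95.7% of control. CDC20, the activator of the anaphase-promoting complex that MAD2 holds in check, had 118, 126 and 122 CPM in siRNA libraries, against 164 and 167 in controls (log2 fold change -0.46 with SE 0.043 and edgeR adjusted p = 5.50e-09). PTTG1, which encodes securin, fell to 89.1% of control, with its call lost in 4 of 12 alternatives, whereas UBE2C, at 101%, and CDCA3, an F-box-like protein, at 94.5%, were not called.

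At the kinetochore, CENPE, a kinesin-family motor that keeps its centromere symbol and brings chromosomes to the metaphase plate, had 76.2, 81.1 and 83.9 CPM in AsPC-1 siRNA libraries, against 104 and 108 in controls (log2 fold change -0.41 with SE 0.050 and edgeR adjusted p = 5.30e-07). CENPA, the centromeric histone H3 variant, at 91.1% of control, and CENPF, a large kinetochore protein, at 105%, were not called. Of the spindle assembly genes, HMMR, a microtubule-binding hyaluronan receptor, fell to 87.4% of control and TPX2 to 91.8%, and NUSAP1, at 82.6% and with the fewest reads of the 3, was not called. The call of TPX2 was lost in 2 of 12 alternative analyses and that of HMMR in 1. Of the cytokinesis genes, ECT2, the exchange factor that activates RhoA at the cleavage site, fell to 79.9% of control (log2 fold change -0.32, SE 0.046). ANLN, the actin-binding scaffold of the contractile ring, moved the other way, with 523, 512 and 511 CPM in siRNA libraries, against 441 and 436 in controls (log2 fold change 0.22 with SE 0.032 and edgeR adjusted p = 7.78e-06). RACGAP1, the partner of ECT2 on the central spindle, at 95.6% of control, and PRC1, with 19 to 37 reads per library, were not called.

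Among the chromosome structure genes, MKI67, which encodes the Ki-67 coat of mitotic chromosomes and is the usual marker of proliferating cells, had 1117, 1121 and 1104 CPM in AsPC-1 siRNA libraries, against 898 and 890.1 in controls. It rose (log2 fold change 0.30 with SE 0.029 and edgeR adjusted p = 1.13e-08), and every siRNA library lay well above both controls. TOP2A, the topoisomerase that untangles sister chromatids, had 429.8, 426 and 452 CPM in siRNA libraries, against 427 and 440.3 in controls, and was not called (log2 fold change -0.0060 with SE 0.035 and edgeR adjusted p = 0.918). The condensin genes NCAPG, NCAPH and SMC4 fell to 90.6%, 90.4% and 90.2% of control, and SMC2, at 92.6%, was not called. The calls of NCAPG and NCAPH were lost in 6 of 12 alternative analyses each and that of SMC4 in 2. NCAPG shares 33.1% of its exon bases with the opposite-strand gene LCORL and SMC4 25.6% with IFT80 and TRIM59, and reads of such partners cannot be told apart unless the counting used strand. FOXM1, the transcription factor of the G2/M program, had 155, 149 and 159 CPM in siRNA libraries, against 152 and 142 in controls, and was not called (log2 fold change 0.054 with SE 0.043 and edgeR adjusted p = 0.370). Its own RNA thus overlapped between the groups while 19 genes of the program were lower.

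**Figure D2:**
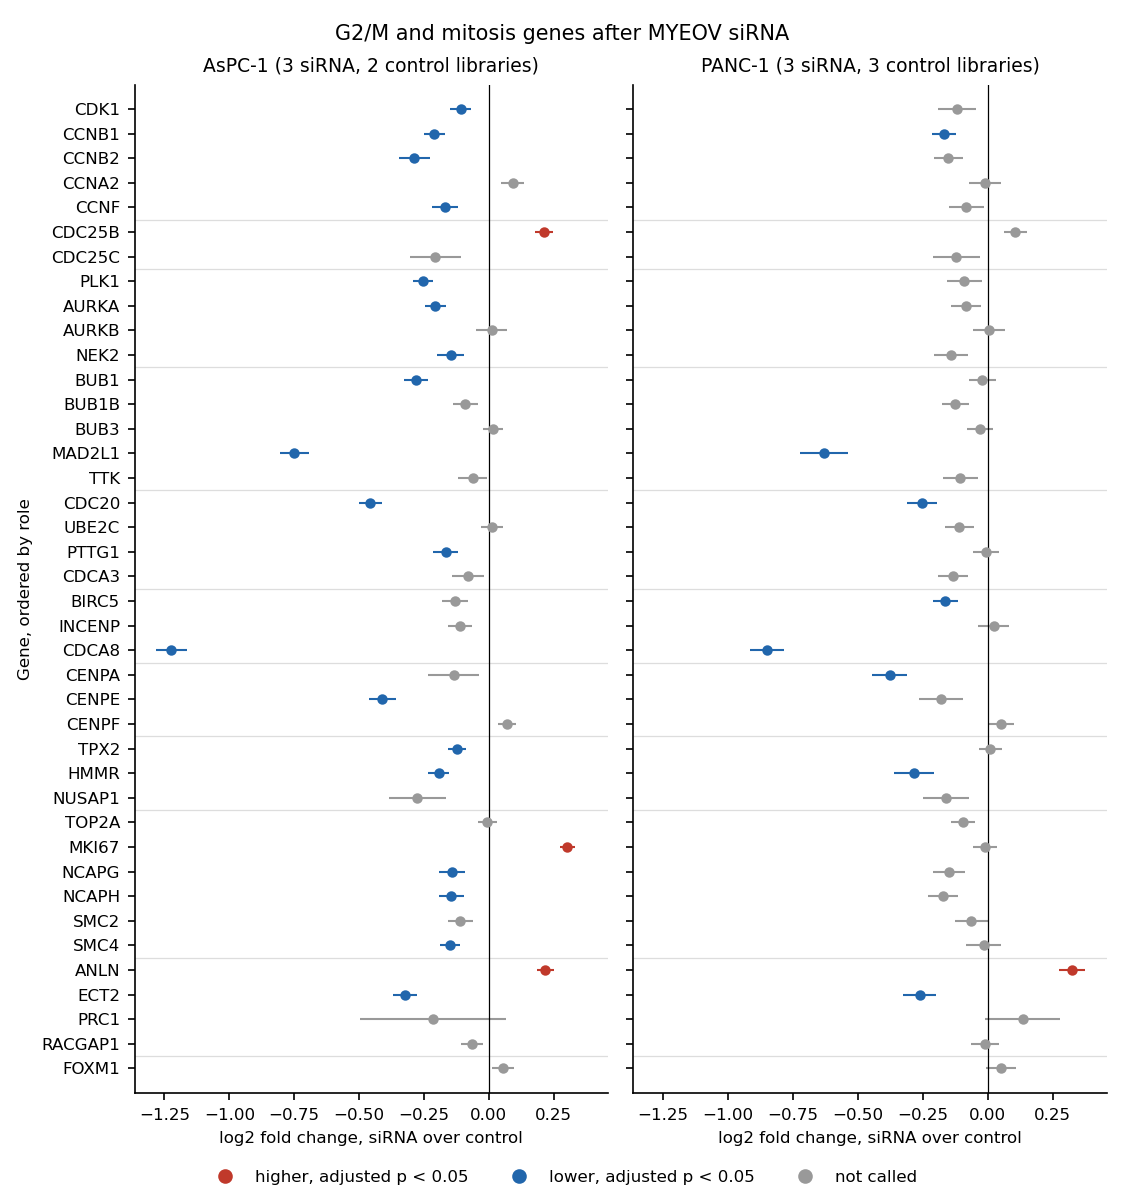
Log2 fold change of each of the 40 genes, siRNA over control, in AsPC-1 on the left and PANC-1 on the right, with bars of 1 standard error and lines between roles. Blue marks genes called lower and red genes called higher at an edgeR adjusted p under 0.05. In AsPC-1 19 genes are blue and 3 red, in PANC-1 8 are blue and 1 red, and CDCA8 and MAD2L1 stand apart on the left of both panels.

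The second comparison was the same one in PANC-1. Of the 40 genes, 8 fell, 1 rose and 31 were not called. CDCA8 and MAD2L1 again had the deepest falls, followed by CENPA and HMMR, and the gene that rose was ANLN. In this line 9.08% of all tested genes were called, 4.16% higher and 4.92% lower, beside which 20% of the 40 genes were lower. The median log2 fold change was -0.101 over the 40 genes and -0.00136 over all tested genes, and 32 of the 40 values were negative. All siRNA libraries lay below all controls for 15 of the 40 genes and above them for 2, against 14.8% and 13.6% of all tested genes. CDCA8, MAD2L1, CENPA and ANLN kept their calls whichever library was left out. The 8 genes called lower became 3 when siRNA replicate 1 was left out and 4 when siRNA replicate 2 or siRNA replicate 3 was. Over all tested genes, 538 to 1712 were called in either direction when 1 library was left out, against 1356 as reported.

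CDCA8 had 69.2, 71.6 and 66.4 CPM in PANC-1 siRNA libraries, against 134, 125 and 115 in controls, which left 55.4% of the control level (log2 fold change -0.85 with SE 0.065 and edgeR adjusted p = 2.21e-06). Of its partners in the chromosomal passenger complex, BIRC5 fell to 89.3% of control, with 181, 185 and 176 CPM in siRNA libraries, against 205, 201 and 201 in controls (edgeR adjusted p = 0.0442). This call lay close to the threshold and was lost in 10 of 13 alternative analyses. INCENP and AURKB were not called, at 102% and 100.3% of control.

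MAD2L1 had 54.1, 49.3 and 63.1 CPM in PANC-1 siRNA libraries, against 86.6, 94.8 and 76.5 in controls (log2 fold change -0.63 with SE 0.092 and edgeR adjusted p = 7.47e-04), and the groups did not overlap. Of the other checkpoint genes, BUB1, BUB1B, BUB3 and TTK, none was called, at 98.5%, 91.8%, 97.9% and 92.9% of control. CDC20 fell to 83.9% of control, with 213, 214 and 196 CPM in siRNA libraries, against 267, 234 and 241 in controls (edgeR adjusted p = 0.0162), and the call was lost without control replicate 1, siRNA replicate 1 or siRNA replicate 3 (edgeR adjusted p of 0.0565 to 0.0768). UBE2C, PTTG1 and CDCA3, at 92.7%, 99.5% and 91.0% of control, were not called.

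CENPA had 32.5, 33.6 and 33.3 CPM in PANC-1 siRNA libraries, against 44.2, 43.9 and 41.0 in controls (log2 fold change -0.38 with SE 0.066 and edgeR adjusted p = 0.00305). The siRNA libraries were within 2 CPM of each other and all lay below the controls. CENPE and CENPF were not called, at 88.3% and 104% of control. HMMR had 79.6, 71.9 and 76.4 CPM in siRNA libraries, against 83.4, 104 and 90.5 in controls (log2 fold change -0.29 with SE 0.077 and edgeR adjusted p = 0.0336), with control replicate 2 the highest. The call of HMMR was lost when any 1 library other than control replicate 1 was left out (edgeR adjusted p of 0.0537 to 0.118). It was also lost with a replicate block (edgeR adjusted p = 0.1155). TPX2 and NUSAP1 were not called, at 101% and 89.5% of control.

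ANLN had 701, 687 and 676 CPM in PANC-1 siRNA libraries, against 518, 594 and 536 in controls (log2 fold change 0.33 with SE 0.052 and edgeR adjusted p = 0.00147). It was the only one of the 40 genes called higher in this line. ECT2 fell to 83.4% of control, with 208, 195 and 209.5 CPM in siRNA libraries, against 233, 272 and 229 in controls (edgeR adjusted p = 0.0210). This call was lost when siRNA replicate 1 or 2 was left out (edgeR adjusted p of 0.0791 to 0.0797) and with a replicate block (edgeR adjusted p = 0.0880). PRC1 and RACGAP1 were not called, at 109.8% and 99.3% of control.

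CCNB1 had 263, 272 and 265 CPM in PANC-1 siRNA libraries, against 308, 302 and 288 in controls (log2 fold change -0.17 with SE 0.046 and edgeR adjusted p = 0.0352), and its groups did not overlap. The call was lost without control replicate 1 and without any of the siRNA replicates (edgeR adjusted p of 0.0748 to 0.18). It was also lost with upper-quartile factors (edgeR adjusted p = 0.0636) and with a replicate block (edgeR adjusted p = 0.101). CDK1 had 143, 137 and 153 CPM in siRNA libraries, against 144, 177 and 149 in controls, and was not called (log2 fold change -0.12 with SE 0.074 and edgeR adjusted p = 0.367). Its highest value was that of control replicate 2, and the other controls lay among the siRNA libraries. CCNB2, CCNA2 and CCNF, at 90.0%, 99.3% and 94.5% of control, CDC25B and CDC25C, at 108% and 92.0%, and the kinases PLK1, AURKA and NEK2, at 90.6% to 94.3%, were not called.

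MKI67 had 637, 666 and 607 CPM in PANC-1 siRNA libraries, against 649, 656 and 619 in controls, with overlapping groups (log2 fold change -0.011 with SE 0.046 and edgeR adjusted p = 0.918). TOP2A had 479, 475 and 477 CPM in siRNA libraries, against 489, 538 and 502 in controls, and was not called, although every siRNA library lay below every control (log2 fold change -0.10 with SE 0.046 and edgeR adjusted p = 0.228). FOXM1 had 133, 134 and 124 CPM in siRNA libraries, against 132, 127 and 119 in controls, with overlapping groups (log2 fold change 0.052 with SE 0.057 and edgeR adjusted p = 0.644). The condensin genes NCAPG, NCAPH, SMC2 and SMC4 were not called, at 90.1%, 88.7%, 95.7% and 98.9% of control. None of the chromosome structure genes therefore passed the test in PANC-1.

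The lines share no library, so their fold changes can be set side by side. Of the 40 genes, 28 had a negative and 5 a positive value in both lines, and 7 differed in sign. Genes called lower in both lines were CDCA8, MAD2L1, CDC20, ECT2, HMMR and CCNB1, and ANLN was called higher in both. A further 13 genes were called lower in AsPC-1 but not in PANC-1, and BIRC5 and CENPA in PANC-1 but not in AsPC-1, and no gene was called in opposite directions. Across the 40 genes, which are not independent replicates, Pearson's r between the lines was 0.838 and Spearman's rho 0.622, and r was 0.6 without CDCA8 and MAD2L1. The same counts and correlations were not made over all tested genes. Agreement between the lines is therefore not shown to be particular to these 40 genes.

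Whether the response differed between lines was tested as an interaction in 1 edgeR fit over all 4 groups, which called 4.36% of all tested genes, 2.07% higher and 2.28% lower in PANC-1. It called 2 of the 40 genes, 2.5% higher (CDCA8) and 2.5% lower (MKI67), which is near those shares. The fall of CDCA8 was smaller in PANC-1, by 0.36 in log2 units (SE 0.092 and edgeR adjusted p = 0.0298), but this call was lost without any of 6 single libraries (AsPC-1 control replicates 1 and 2, AsPC-1 siRNA replicates 1 and 3, PANC-1 control replicate 3 and PANC-1 siRNA replicate 1; edgeR adjusted p of 0.0638 to 0.121). MYEOV itself was lowered less in PANC-1, by 0.59 (SE 0.10; edgeR adjusted p = 0.00153). MKI67 was higher after siRNA in AsPC-1 and not in PANC-1, a difference of -0.33 for PANC-1 minus AsPC-1 (SE 0.058; edgeR adjusted p = 0.00182), and was called whichever library was left out. The difference was -0.024 (SE 0.094; edgeR adjusted p = 0.973) for CDK1, 0.028 (SE 0.066; adjusted p = 0.915) for CCNB1, -0.017 (SE 0.077; adjusted p = 0.985) for FOXM1 and -0.10 (SE 0.062; adjusted p = 0.425) for TOP2A, and none of these was called. The count of genes with a value called higher in PANC-1 was 5 when PANC-1 control replicate 2 was left out, 2 for PANC-1 siRNA replicate 3 and 0 for each of the 6 libraries above. The biological coefficient of variation between libraries was 2.77% in the AsPC-1 fit and 6.08% in the PANC-1 fit, and its part in the numbers of calls in the lines was not tested.

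**Figure D3:**
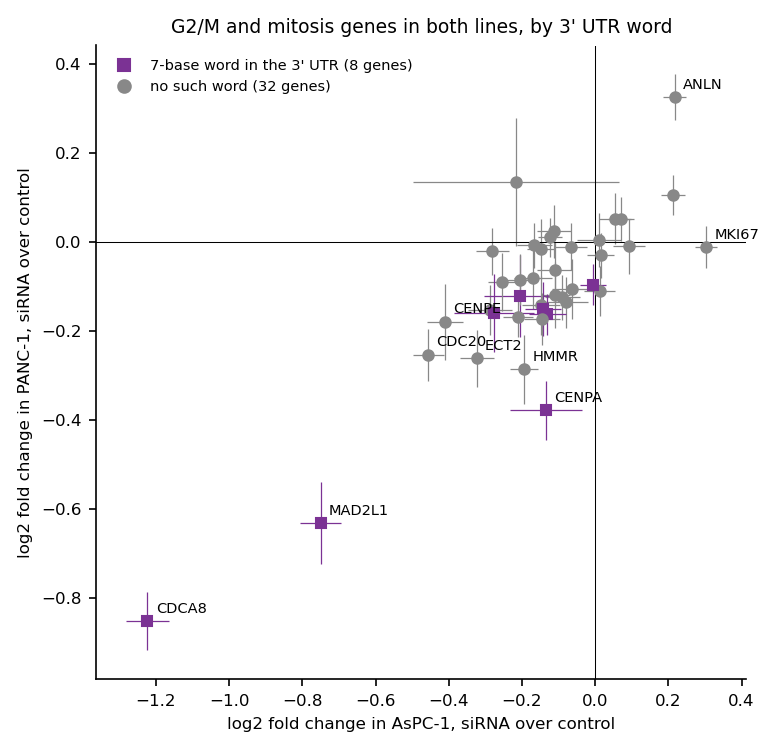
Log2 fold change after MYEOV siRNA in AsPC-1 (horizontal axis) and PANC-1 (vertical axis) for the 40 genes, with bars of 1 standard error. Purple squares are the 8 genes with the 7-base word in a 3′ UTR and grey circles the other 32 genes. All 8 squares lie below 0 on both axes, with CDCA8 at -1.22 and -0.85 and MAD2L1 at -0.75 and -0.63. Of the 32 circles, 23 lie below 0 on the AsPC-1 axis and 24 on the PANC-1 axis.

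The 8 genes with CTCATGT in a 3′ UTR all had negative log2 fold changes in both lines. So did 23 of the 32 genes without the word in AsPC-1 and 24 of 32 in PANC-1. Over all tested genes that carry the word, 62.6% were negative in AsPC-1 and 64.4% in PANC-1, against 48.9% and 49.2% of all genes with a 3′ UTR. In AsPC-1 3 of these 8 were called lower (CDCA8, MAD2L1 and NCAPG), against 16 of the 32 genes without the word. In PANC-1 4 of the 8 were called lower (CDCA8, MAD2L1, CENPA and BIRC5), against 4 of the 32 without it. The call of NCAPG in AsPC-1 was lost in 6 of 12 alternative analyses and that of BIRC5 in PANC-1 in 10 of 13. The median log2 fold change was -0.174 with and -0.117 without the word in AsPC-1, and -0.161 with and -0.073 without it in PANC-1. Over all tested genes that carry the word, 35.3% were called lower in AsPC-1, against 17.8% of all genes with a 3′ UTR, and 18.6% in PANC-1, against 5.5%. TOP2A carries the word and was at 99.6% of control in AsPC-1, and CDC20, CENPE and ECT2 fell there without it.

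The third comparison set the control libraries of the lines against each other. Of the 40 genes, 12 were higher and 21 lower in AsPC-1 than in PANC-1, and 7 were not called, where 76.4% of all tested genes were called, 36.1% higher and 40.3% lower. All AsPC-1 controls lay above all PANC-1 controls for 12 of the 40 genes and below them for 22, against 39.5% and 44% of all tested genes. The median log2 difference was -0.206 over the 40 genes and -0.0585 over all tested genes. HMMR, CCNF, PLK1 and CCNA2 were the most above PANC-1, and CENPA, BIRC5, PRC1 and TPX2 the most below. All 4 cytokinesis genes and 4 of 5 checkpoint genes were lower in AsPC-1, whereas 3 of 5 genes of the cyclin group were higher. Scaling by upper quartiles moved the median of the 40 genes to -0.289 and that of all tested genes to -0.143. With it, no fold change of a named gene changed sign.

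HMMR had 204 and 193 CPM in AsPC-1 controls, against 83.4, 104 and 90.5 in PANC-1 controls (log2 fold change 1.12 with SE 0.081 and edgeR adjusted p = 5.24e-09). CCNF had 102 and 96.3 CPM in AsPC-1, against 54.6, 49.6 and 54.4 in PANC-1 (log2 fold change 0.93 with SE 0.072 and edgeR adjusted p = 1.17e-08). HMMR and CCNF thus had the widest gaps above PANC-1, with no overlap. PLK1 had 227 and 225 CPM in AsPC-1, against 171, 143 and 156 in PANC-1 (log2 fold change 0.55 with SE 0.069 and edgeR adjusted p = 3.33e-06). CCNA2 had 123 and 121 CPM in AsPC-1, against 87.2, 93.0 and 81.7 in PANC-1 (log2 fold change 0.51 with SE 0.069 and edgeR adjusted p = 8.56e-06). The libraries of the lines were separate for both genes. MKI67 had 898 and 890.1 CPM in AsPC-1, against 649, 656 and 619 in PANC-1 (log2 fold change 0.50 with SE 0.050 and edgeR adjusted p = 2.42e-07), and the other genes higher in AsPC-1 were INCENP, SMC2, CDC25B, CDK1, FOXM1, NCAPG and UBE2C, at log2 fold changes of 0.14 to 0.36. The call of UBE2C was lost in 9 of 12 alternative analyses and that of NCAPG in 7.

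CENPA had 18.7 and 16.8 CPM in AsPC-1 controls, against 44.2, 43.9 and 41.0 in PANC-1 controls (log2 fold change -1.25 with SE 0.10 and edgeR adjusted p = 1.02e-08). BIRC5 had 86.7 and 87.7 CPM in AsPC-1, against 205, 201 and 201 in PANC-1 (log2 fold change -1.19 with SE 0.061 and edgeR adjusted p = 8.98e-11). Both lay far below PANC-1 in both AsPC-1 libraries. TPX2 had 452 and 430.1 CPM in AsPC-1, against 763, 755 and 730.2 in PANC-1 (log2 fold change -0.74 with SE 0.053 and edgeR adjusted p = 4.47e-09). PRC1 had 2.73 and 2.39 CPM in AsPC-1, against 5.61, 5.36 and 4.86 in PANC-1 (log2 fold change -1.01 with SE 0.20 and edgeR adjusted p = 3.25e-04), which rests on 27 and 36 reads in AsPC-1 and 73 to 86 in PANC-1. The lines did not overlap for either gene, with far fewer reads behind PRC1.

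CDK1 had 189 and 181 CPM in AsPC-1 controls, against 144, 177 and 149 in PANC-1 controls (log2 fold change 0.26 with SE 0.080 and edgeR adjusted p = 0.00781). FOXM1 was also higher in AsPC-1, with 152 and 142 CPM, against 132, 127 and 119 in PANC-1 (log2 fold change 0.25 with SE 0.066 and edgeR adjusted p = 0.00312). CCNB1 went the other way, with 240.3 and 235 CPM in AsPC-1, against 308, 302 and 288 in PANC-1 (log2 fold change -0.31 with SE 0.057 and edgeR adjusted p = 1.42e-04). CDK1 and its main mitotic cyclin thus differed in opposite directions between the lines. TOP2A was lower in AsPC-1, with 427 and 440.3 CPM, against 489, 538 and 502 in PANC-1 (log2 fold change -0.21 with SE 0.057 and edgeR adjusted p = 0.00358). The calls of CDK1, FOXM1 and TOP2A were lost when AsPC-1 control replicate 1 was left out (adjusted p in edgeR of 0.0616 to 0.0810), which leaves 1 library in that group, assumed to vary like those of PANC-1. The other genes lower in AsPC-1 had log2 fold changes of -0.69 (ECT2) to -0.18 (BUB3), CDCA8 among them at -0.68, and MAD2L1, at -0.073, was not called.

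**Figure D4:**
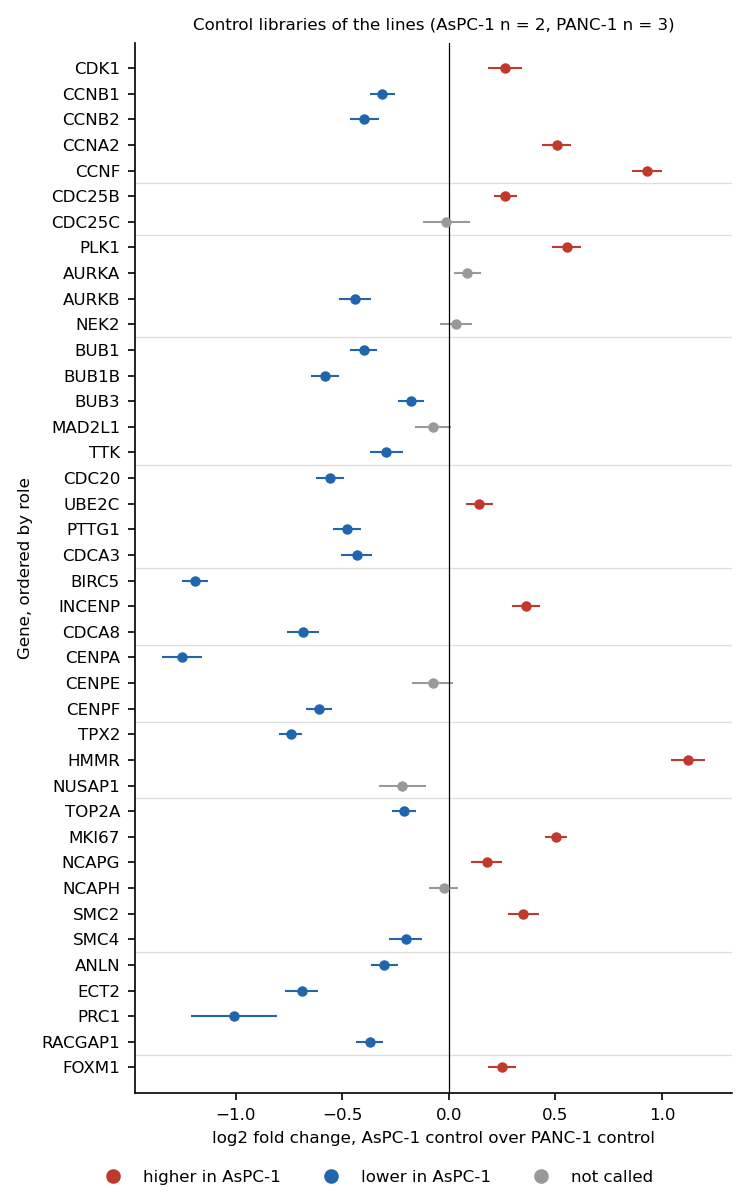
Log2 fold change of each of the 40 genes between control libraries, AsPC-1 over PANC-1, with bars of 1 standard error and lines between roles. Red marks the 12 genes called higher in AsPC-1, blue the 21 called lower and grey the 7 not called. All 4 cytokinesis genes (ANLN to RACGAP1) are blue, and the cyclin group at the top is split.

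Neighbouring gene lists give the setting of these changes. Of 103 other mitosis genes, such as core subunits of the anaphase-promoting complex, outer kinetochore proteins and DREAM and MuvB subunits, 19 rose and 25 fell in AsPC-1 and 0 rose and 10 fell in PANC-1, with median log2 fold changes of -0.0123 and -0.0467. The falls were 24.3% of this list in AsPC-1 and 9.71% in PANC-1, beside 16.3% and 4.92% of all tested genes. The 3 called falls of largest size were the same genes in both lines: ANAPC13, a small subunit of the anaphase-promoting complex, fell to 55.5% of control in AsPC-1 and 64.3% in PANC-1. MYBL2, the B-MYB activator that works with MuvB on mitotic genes, fell to 57.7% and 69.9%, and CEP55, a midbody protein, to 63.9% and 76.6%. The largest called rises in AsPC-1 were of UBE2S, which extends ubiquitin chains for the anaphase-promoting complex, to 152% of control, of the cohesin subunit STAG1, to 144%, and of ASPM, a spindle pole protein, to 141%. MYBL2 was thus lower in both lines while FOXM1, the other activator named here, was not called in either.

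Of 12 mitotic kinesins, 8 fell in AsPC-1 and 4 in PANC-1 and 0 rose, with medians of -0.212 and -0.104. Of 34 G1/S genes, 10 fell and 1 rose in AsPC-1 (median -0.124), and 13 fell and 0 rose in PANC-1 (median -0.194). Over all tested genes, 16.6% rose and 16.3% fell in AsPC-1, and 4.16% rose and 4.92% fell in PANC-1. Relative to the mean of a line's controls, the median over the 40 genes was -0.116, -0.141 and -0.0955 in the AsPC-1 siRNA libraries, against 0.00737 and -0.00737 in the controls. In PANC-1 it was -0.0786, -0.0625 and -0.0994 in the siRNA libraries, against 0.0243, 0.0305 and -0.0404 in the controls. Every siRNA library of a line had a lower median over the 40 genes than every control, and the gap was narrow in PANC-1.

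**Figure D5:**
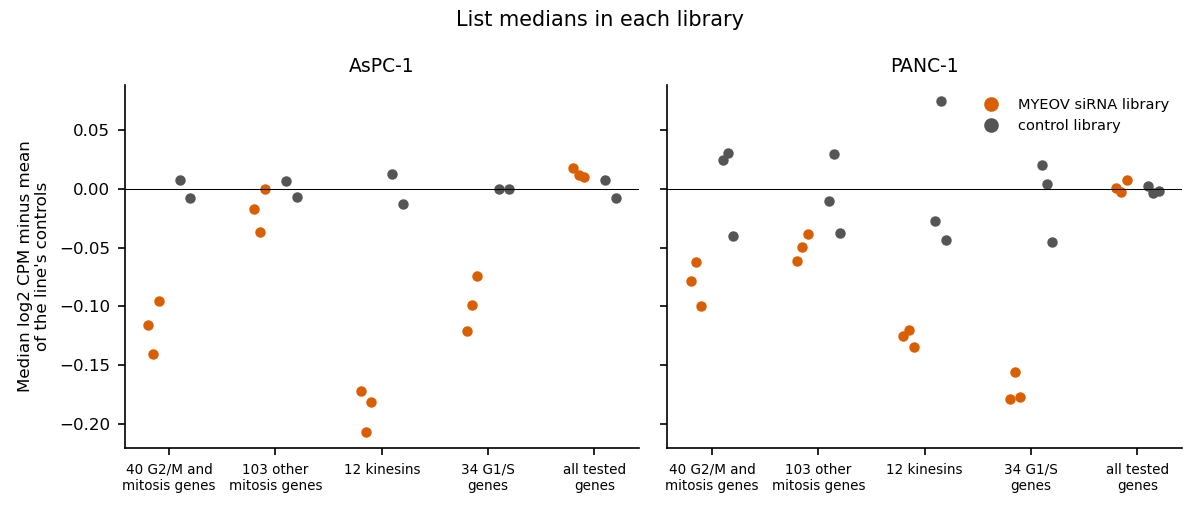
Median over each gene list of log2 CPM minus the mean of the line's controls, 1 point per library, with siRNA libraries in orange left of control libraries in grey. In AsPC-1 the 40 genes lie at -0.141 to -0.0955 in siRNA libraries and the 103 other mitosis genes close to 0. In PANC-1 the 40 genes lie at -0.0994 to -0.0625, and the G1/S genes lie lowest.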

How the data were processed

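The deposited tables hold whole-number read counts per gene, not normalised, which the authors made from paired-end poly(A) RNA-seq. Per the submitters' processing notes, HISAT2, HTSeq and hg19 were used, with no versions. Whether counting used strand: not given in the sources used here. All 58735 identifiers matched GENCODE 29 (Ensembl 94), which supplied symbols, exons and 3′ UTRs, and 0 rows named no gene. Library totals were 12113093 to 15066456 counts, and no 2 libraries were identical.

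Each siRNA comparison and the control comparison was fitted on its own groups with edgeR 4.0.16 (R 4.3.3): filterByExpr, TMM factors, the quasi-likelihood test and Benjamini-Hochberg adjustment over 14304, 14929 and 16182 genes, and the difference in response over 16680. The test was tried on simulated counts with independent libraries and the fitted spread, which cannot show how it does where libraries are linked. The standard error is the log2 fold change divided by the square root of F. Printed CPM use TMM factors over all 11 libraries. Alternatives were RLE and upper-quartile factors, DESeq2 1.42.0, no filter, a minimum of 5 CPM, all groups in 1 fit, a replicate block and leaving out each library.

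The members, lists and tests were chosen with earlier results of these data known. Genes with full values are CDK1, CCNB1, FOXM1, TOP2A and MKI67, the 4 largest called rises and falls per comparison and those called in the difference. Of the other mitosis genes the 3 largest called rises and falls are named. The other genes are given by role, with values added for some of them after they were seen. Motif and word matches were counted as strings. Gene-level counts cannot resolve isoforms, and reads on named pseudogenes, which 11 of the 40 genes have, may be split.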

Additional observations from a re-analysis of the deposited data

Results flagged for a closer look

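The siRNA responses of 2 of the 40 genes, and of MYEOV, differed between the lines in the edgeR test of the difference itself. Of the 40 genes 2.5% were called higher and 2.5% lower in PANC-1, near the 2.07% and 2.28% of all tested genes. The log2 fold change of CDCA8 was higher in PANC-1 (-0.85) than in AsPC-1 (-1.22), a difference of 0.36 (SE 0.09; edgeR adjusted p = 0.0298), with a fall in both lines. This call was lost in 7 of 17 alternatives, with the replicate block (edgeR adjusted p = 0.127) and without any of 6 single libraries (0.0638 to 0.121). That of MKI67 was lower in PANC-1 (-0.011) than in AsPC-1 (0.30), a difference of -0.33 (SE 0.06; edgeR adjusted p = 0.00182). That of MYEOV was higher in PANC-1 (-0.88) than in AsPC-1 (-1.48), a difference of 0.59 (SE 0.10; edgeR adjusted p = 0.00153).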

How the results depend on the processing

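Gene-level values were followed under the alternatives only for genes called in a comparison and for CDK1, CCNB1, FOXM1, TOP2A and MKI67. Of these values, 858 kept their side of the threshold, 97 lost a call, and no called value changed sign. Calls gained by the other genes do not enter this tally. Values near 0 that were not called did change sign under some alternatives, for TOP2A in AsPC-1, MKI67 in PANC-1 and the differences in response of CDK1, CCNB1 and FOXM1. Leaving out an AsPC-1 control leaves 1 library in that group, assumed to vary like the others. The count called lower in AsPC-1, 19 as reported, was 10 in 1 fit over all groups and 13 with DESeq2. It was 15 with no filter, 23 with a minimum of 5 CPM and 14 to 20 when 1 siRNA library was left out. Over all tested genes, calls in either direction in AsPC-1, 4709 as reported, were 3503 in 1 fit over all groups and 3170 with DESeq2. They were 4541 with no filter and 4596 with a minimum of 5 CPM. The count called lower in PANC-1, 8 as reported, was 3 to 7 when 1 library was left out. Over all tested genes, calls in either direction there were then 538 to 1712, against 1356 as reported. Between controls, the count higher in AsPC-1 was 8 to 11 and the count lower 18 to 22 when 1 library was left out, against 12 and 21. For the difference in response, the count with a value higher in PANC-1, 1 as reported, was 2 with upper-quartile factors and 2 with DESeq2. It was 0 to 5 when 1 siRNA library or 1 PANC-1 control was left out. Over all tested genes, calls of a difference were 727 as reported, 700 with upper-quartile factors and 674 with DESeq2.

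Whether library numbers pair the samples was looked at in deviations from group means. Those of same-numbered libraries correlated at -0.319 to -0.00253 in PANC-1 and at -0.0358 and -0.0204 in AsPC-1. Those of other-numbered libraries correlated at -0.284 to 0.288 in PANC-1 and at -0.0135 to 0.0358 in AsPC-1. Such deviations cancel within a group, so these values cannot settle whether libraries are linked. With the replicate block, 4 genes were called lower in PANC-1 (8 without it) and 0 had a called difference higher in PANC-1 (1 without it). Over all genes, the block gave 628 calls in PANC-1, against 1356 without it, and 241 for the difference, against 727. The cause of each of these shifts was not tested. Depth limits PRC1, with 19 to 37 reads per AsPC-1 library, and NUSAP1, CENPA and CDC25C, the next lowest in CPM there.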
